A study of Mus musculus with 48 samples.

Results

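Promoter regions marked by H3K27ac, the acetylation of lysine 27 on histone H3, were examined in mononuclear phagocytes of the mouse heart. They were chosen by measured signal: pairs of reads were counted in 500 bp windows, expressed as pairs per 1000000 unique pairs (CPM) and averaged over 24 groups, and windows that reached 4 times the mean over windows with any pair were kept, those starting within 1000 bp of each other being joined into regions. The 7635 promoter regions were the autosomal regions under 10 kb that overlapped the 1 kb on either side of a protein-coding gene start, out of 27160 regions (28.1%). The height and the position of these regions were thus fixed by the choice and are given as descriptions. Differences between samples took no part in it.

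The cells were CD45+F4/80+ macrophages and monocytes sorted from hearts of C57BL/6 mice, and the libraries were made by CoBATCH, in which an antibody guides a transposase to the histone mark. The 24 groups combined surgery on postnatal day 1 (P1) or day 10 (P10), myocardial infarction (MI, by tying off the left anterior descending artery) or sham surgery, collection 3 or 7 days later, and the infarct zone (IZ), border zone (BZ) or remote zone (RZ). All groups shared the strain and the sort. The labels give the treatment of every sample as infarction, so MI and sham were taken from the titles. Tissue of one zone was pooled from several hearts before the cells were sorted. The 42 libraries held 48077 to 1008924 pairs (median 412015.5), of which 32.2% to 63.9% lay in regions, and 3 libraries of P1 hearts at day 7 held under 100000. In 18 groups there were 2 libraries and in 6 there was 1, and the 3 zones of one age, surgery, day and replicate number made up 14 pools. The 6 groups with 1 library were those of P1 hearts at day 3, where MI and sham had 1 pool each. All groups share 1 estimate of the spread, which for these 6 comes from the other groups. The authors speak of 2 biological replicates. Nothing in the labels says that same-group libraries came from separate mice, so p-values measure the spread between these libraries. CoBATCH gives barcoded single cells, which were summed here by library, and in these sums fewer cells of a type and less acetylation per cell cannot be told apart.

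A promoter is the DNA around the start of a gene where transcription is initiated. H3K27ac is laid down by acetyltransferases such as p300 and CBP and is found at active promoters and enhancers. Promoters rich in CpG dinucleotides serve mostly genes used in many cell types, whereas CpG-poor promoters more often belong to genes restricted to a lineage or switched on by a signal. In macrophages, factors such as PU.1, AP-1 and the interferon regulatory factors act at enhancers as well as at promoters.

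The DNA just before the gene start is shown for 4 promoter regions that the results below turn on, to let the CpG-poor and the CpG-rich kinds be seen side by side. They were the region with the smallest p among those higher at P10 in sham hearts (Plekhg5), those with the smallest p lower and higher at P10 after MI (Ikbke, Kdelc2), and the region higher after MI in P10 hearts at day 3 (Trem1). Each line gives the 200 bases that end directly before the gene start, 5′ to 3′ on the strand of the gene, from the RefSeq sequence of the build GRCm38.p6, with coordinates on GRCm38 (mm10). Capitals mark CpG dinucleotides.
Plekhg5, chr4:152072298-152072497, plus strand: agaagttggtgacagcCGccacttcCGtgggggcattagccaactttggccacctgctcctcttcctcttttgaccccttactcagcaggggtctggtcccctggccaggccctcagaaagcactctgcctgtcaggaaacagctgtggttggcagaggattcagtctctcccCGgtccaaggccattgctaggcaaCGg
Ikbke, chr1:131279607-131279806, minus strand: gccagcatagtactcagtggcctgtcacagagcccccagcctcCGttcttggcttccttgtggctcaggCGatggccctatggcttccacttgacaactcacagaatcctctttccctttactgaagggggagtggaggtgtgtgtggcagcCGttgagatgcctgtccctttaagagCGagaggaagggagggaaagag
Kdelc2, chr9:53383825-53384024, plus strand: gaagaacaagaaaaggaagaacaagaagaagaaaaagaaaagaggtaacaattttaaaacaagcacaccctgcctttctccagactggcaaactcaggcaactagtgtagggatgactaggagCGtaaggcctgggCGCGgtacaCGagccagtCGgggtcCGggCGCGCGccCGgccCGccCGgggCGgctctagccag
Trem1, chr17:48232568-48232767, plus strand: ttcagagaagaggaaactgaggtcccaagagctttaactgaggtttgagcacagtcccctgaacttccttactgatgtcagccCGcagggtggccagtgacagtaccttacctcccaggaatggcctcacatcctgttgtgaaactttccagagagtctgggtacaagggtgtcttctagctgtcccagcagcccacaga
The stretches before Trem1, Plekhg5 and Ikbke held 1, 4 and 4 CpG dinucleotides and that before Kdelc2 held 13. By GC content of at least 55% and a ratio of observed to expected CpG of at least 0.6 in the 300 bases from 250 before to 50 behind the start, only Kdelc2 of the 4 counted as CpG-rich.

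Short motifs were searched on both strands in the same 300 bases of every gene start: the GC box GGGCGG, the ETS site CCGGAAG, the CCAAT box CCAAT, a PU.1 site GAGGAAGT, AP-1 TGANTCA, the interferon-response repeat GAAANNGAA, NRF1 CGCATGCG, CRE TGACGTCA, the octamer ATTTGCAT, the E-box CACGTG and, on the strand of the gene between 40 and 15 bases before the start, TATAAA. Matches of different motifs may overlap. In the printed stretches the GC box occurred at −23 to −18 and −16 to −11 before Kdelc2, which also held the interferon-response repeat at −191 to −183 and −170 to −162. No motif of the set was found in the stretches before Plekhg5, Ikbke and Trem1. A match is a description of letters and not of binding.

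The promoter regions were longer and stronger than the rest. Their median length was 2500 bp (quartiles 1500 and 4000 bp), against 1500 bp in the 18938 other autosomal regions. The latter include 1107 regions of 10 kb or more at gene starts, so they hold promoters too. Their median signal was 5.16 CPM per kb against 3.09, on the scale of all unique pairs. A promoter region covered 1 gene start in 6461 cases and several in 1174, and 595 (7.79%) held a pair of starts that point away from each other. The gene start itself lay inside the region in 93.2% of cases. Together these regions held 28.2% of the signal in all regions. At the lower edge of the choice, the strongest window reached 1.144 CPM at Ypel1 and 1.145 at Tamm41 and Ptpn21, and just outside, under the threshold of 1.143 CPM, it reached 1.142 at 1700001P01Rik and 1.140 at BC005561 and Gm21983. The longest regions kept, such as Pcnx3 and Ccdc114, spanned 9500 bp, and the shortest left out for length, at Tnfaip8l2 and Epo, spanned 10000 bp.

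Of 21938 protein-coding gene starts, 8843 fell in a promoter region, 1712 in a longer region, 10252 in none and 1131 on a sex chromosome. The starts with a promoter region differed in sequence from those with no region, a property that the choice had not used. Of the former 60.4% were CpG-rich, of the latter 15.8%, and of all starts 36.6%. The GC box was found at 62.5% and 24.7% of them and at 43.0% of all starts. The ETS site, bound by a family that includes PU.1, was found at 19.9% and 2.98% (all starts 10.8%), and NRF1, a factor of nuclear-encoded mitochondrial genes, at 4.03% and 0.663% (all starts 2.61%). TATAAA was less frequent, at 0.803% against 4.09% (all starts 2.41%), and so was AP-1, at 4.47% against 9.29% (all starts 6.91%). The CCAAT box did not separate them, at 38.9% against 38.1% (all starts 39.0%).

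Within the promoter regions, 4578 were CpG-rich and 3057 CpG-poor, with median signals of 5.50 and 4.63 CPM per kb. At CpG-poor starts with a promoter region the longer PU.1 site was found in 4.26%, AP-1 in 6.98% and the interferon-response repeat in 11.2%, against 2.51%, 2.83% and 5.39% at CpG-rich starts. Of all starts 3.23% held the PU.1 site and 8.47% the interferon-response repeat. These shares describe letters in 300 bases, and since motifs that contain CpG follow base composition, their shares are not independent of it.

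The signal formed a single summit over the gene start and ran on into the gene. Over 6426 promoter regions with 1 start, the density of pairs from 150 bp before to 50 bp behind the start was 1.51 ± 0.17 times that between 300 and 700 bp behind it (SD over 14 pools, range 1.14 to 1.74), and the start was not below its flank in any pool. CpG-rich starts had a sharp summit at −50 bp (median over pools) and a ratio of 1.76 ± 0.23, and CpG-poor starts a lower summit at 125 bp behind the start and a ratio of 1.22 ± 0.11. Between 300 and 1500 bp from the start, the side of the gene held 1.37 ± 0.03 times the pairs of the far side at CpG-rich starts and 1.85 ± 0.09 times at CpG-poor ones. The level near the start was used by the choice of regions, so these ratios were not tested. Counting the ends of fragments instead of their midpoints gave 1.57 ± 0.17 for the first ratio and left the CpG-rich summit at −50 bp, but moved the CpG-poor summit to 25 bp (range over pools −25 to 275 bp), so the offset of 125 bp holds for midpoints.

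**Figure D1:**
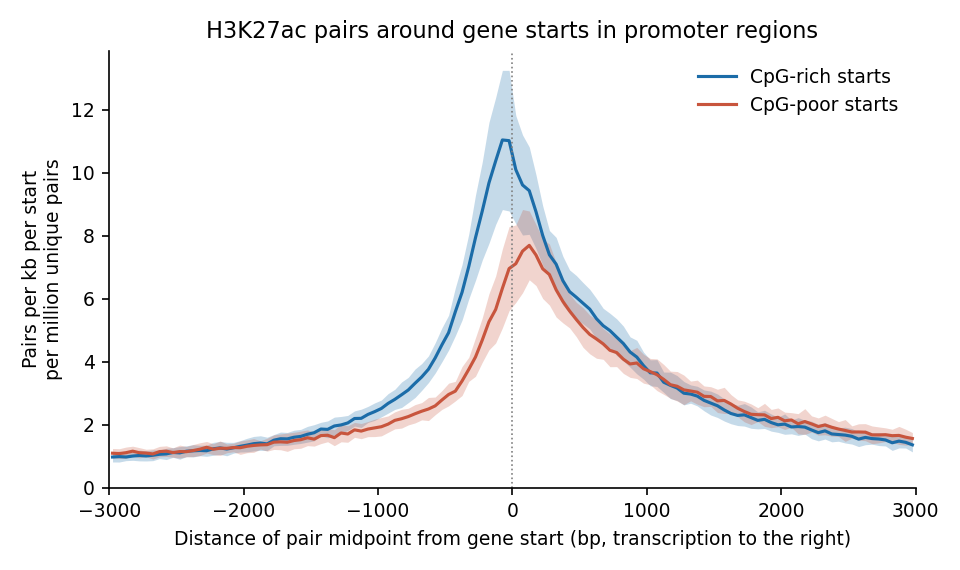
CPM per kb and start (y, from unique pairs) by distance of the pair midpoint from the gene start in bp (x, transcription to the right), for 3717 CpG-rich and 2709 CpG-poor single-start promoter regions; lines are means and bands SD over 14 pools. The summits of the single pools lie at a median of −50 bp at CpG-rich and 125 bp at CpG-poor starts (25 bp by fragment ends), neither mean line dips over the start, and both carry more signal on the side of the gene.

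The regions with the highest mean signal were wide. Among the 10 highest, on the CPM scale per region, were Map3k11 with Pcnx3 (115.8), Emp3 with Ccdc114 (102.4), Sin3a (94.6), Csrnp1 (92.8), Cars2 with Ing1 (91.2), Zc3h4 (90.5), Cenpt with Thap11 and Nutf2 (90.5) and Zyx (89.9). These 8 spanned 7000 to 9500 bp, and per kb they ranged from 9.53 CPM at Zc3h4 to 13.5 at Sin3a, the scaffold of a histone deacetylase complex. Zyx encodes an adhesion protein bound to actin, and Map3k11 a kinase upstream of JNK. None of the 10 passed the test in any comparison, the smallest adjusted p of the 8 being 0.445 (Zyx, limma). In the single libraries, values are given from here on as region CPM, the pairs per 1000000 pairs in tested regions after scaling. Sin3a had 150, 227 and 431 over the 42 libraries (lowest, median, highest), and its group means lay between 159 and 308. It had the highest lowest value of the 10 regions, and others ranged more widely, Zyx from 0 to 368, the region of Map3k11 and Pcnx3 from 28.8 to 418 and that of Emp3 and Ccdc114 from 57.5 to 373.

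The macrophage and monocyte identity genes all had a region. Of 20 genes, 7 had a promoter region and 13 lay in regions of 10 kb or more, which are not among those described here, whereas of all 21938 starts 1712 did so. Among the 7 were the ETS factor gene Fli1 (64.5 CPM per region), Adgre1, which encodes F4/80 (41.95), Runx1 (40.6), the Fc receptor gene Fcgr1 (39.5), Ptprc, which encodes CD45 (36.8), and Mertk, a receptor for the uptake of dying cells (32.5). Immediate early genes followed the same division, with 4 of 18 in promoter regions (Jun, Klf4, Egr2 and Dusp1) and 14 in longer ones, as did genes of the actin cytoskeleton, with 5 of 17 and 12 of 17. Most housekeeping genes instead had a promoter region of their own: 59 of 83 ribosomal protein genes, 62 of 80 genes of oxidative phosphorylation and 16 of 20 cell cycle genes. Over all 21938 starts 8843 had one. Of interferon response genes 12 of 16 had one, with Isg15 (55.5 CPM), Irf9 (50.9), Irf7 (39.5) and Oasl1 (31.5) the strongest.

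Markers of other heart cells and of lymphocytes had no promoter region or one at a low level, except those of B cells. A gene without a promoter region may lie in a region of 10 kb or more, so its absence here does not show low signal. The paper reports a cluster of cells other than leukocytes, with higher signal around Igfbp7, Col1a1 and Col4a1, which are on these lists. No fibroblast gene of 7 had a promoter region, and of 10 cardiomyocyte genes only Tnni3 had one, at 1.24 CPM. Among 7 endothelial genes Kdr had one at 3.49 CPM, among 7 T and NK cell genes Lck at 1.33 CPM, and among 7 neutrophil genes none, though 2 lay in longer regions. Of 6 B cell genes 3 had a promoter region, Cd79a (46.9 CPM, in a region shared with Arhgef1), Cd79b (27.6) and Ms4a1 (19.5), all above the median promoter region (12.9). None of these 3 passed the test in any comparison.

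For comparisons between samples, 12490 regions that averaged 3 pairs or more over the libraries were fitted together, among them 5495 of the 7635 promoter regions (3606 CpG-rich and 1889 CpG-poor) and 6801 other autosomal regions. A region was called when its adjusted p (limma voom, Benjamini-Hochberg over the 12490) was under 0.05, and differences are on the log2 scale ± SE.

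Promoter regions varied less between the pools than other autosomal regions of equal mean count. Those other regions include the ones of 10 kb or more at gene starts. The median squared deviation from the mean of the pools, compared within 10 bins of mean count, was 0.098 ± 0.064 in promoter regions and 0.130 ± 0.072 in other autosomal regions (mean ± SD over 14 pools), a difference of −0.032 ± 0.020 or 24.4%. It was lower in 13 of 14 pools, the exception being P10 sham day 3 replicate 2 (exact sign-flip permutation test over pools, two-sided p = 0.000244). The test takes the pools as independent, though all deviations are from the same mean and pools share flow cells, so this p may be too small. Regions were matched on mean count and not on length. Leaving out each pool in turn gave −0.035 to −0.027. The SD of single regions over pools had a median of 0.43 on the log2 scale at CpG-rich promoters, 0.46 at CpG-poor promoters and 0.47 in other regions.

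**Figure D2:**
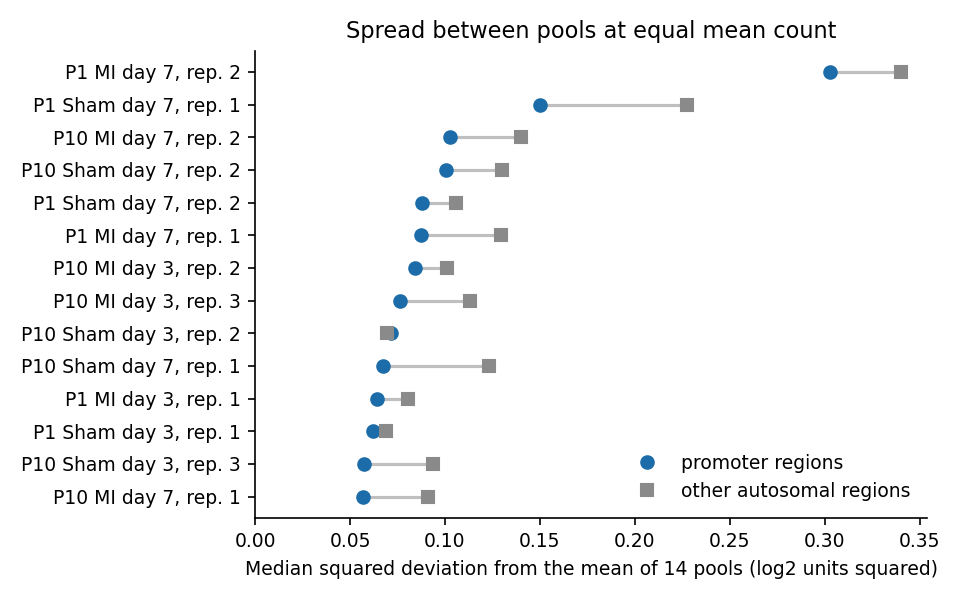
Median squared deviation from the mean of the 14 pools (x, log2 units squared) in each pool (y) for promoter regions (circles) and other autosomal regions (squares), weighted to equal mean count. The circle lies to the left of the square in 13 of 14 pools, and both are largest in the P1 MI day 7 pool of replicate 2, which held 269316 pairs.

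The largest variance for their mean count was found at Ikbke, Tmem243, Plekhg5, Tanc2, Matr3, Maml2, Baiap2 and Slco2b1, with SDs of 0.85 to 1.71. At 5 of these 8 regions (Tmem243, Plekhg5, Matr3, Maml2 and Baiap2) the lowest value came from the pool P1 MI day 7 replicate 2, the shallowest, and what depth contributed was not tested. Ikbke had its lowest value in P10 MI day 7 replicate 2 and its highest in P1 MI day 7 replicate 2. The smallest variance was found at Eloc, a subunit of elongin, Gusb, a lysosomal glucuronidase often used as a reference gene, Tdg, a DNA repair glycosylase, Fbrsl1, Atf7 with Gm28047, Pcid2 with Cul4a, Zfp771 and Kdm7a, a histone demethylase, with SDs of 0.11 to 0.18. Gusb ranged over pools from 7.06 to 7.54 on the log2 scale of region CPM.

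The share of region pairs that lay in promoter regions was close to constant, at 25.5% to 31.7% per library (median 28.4%). It was 27.7% ± 0.92 in 7 MI pools and 28.9% ± 0.88 in 7 sham pools, a difference within age and day of −0.93 percentage points (exact permutation test, two-sided p = 0.102, smallest possible 0.00463). P1 day 3 had 1 pool per surgery, so without either of them, MI replicate 1 or sham replicate 1, that whole comparison dropped out. Over the remaining ages and days the difference was −1.44 points (exact permutation p = 0.037). Between ages the share was 28.2% ± 1.03 in 8 P10 pools and 28.5% ± 1.14 in 6 P1 pools, a difference of −0.40 points (exact permutation p = 0.525). This difference turned to +0.83 points with all unique pairs as denominator. It turned to +0.03 without the pool P1 MI day 3 replicate 1, an omission that removed the whole comparison of ages after MI at day 3. Neither difference passed the test on all pools.

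MI against sham asks how promoters responded to the infarct. In P10 hearts at day 3, 1 of 5495 promoter regions passed the test, Trem1, where 16 of all 12490 regions (0.128%) did, 15 of them higher (0.12%). Trem1 encodes a receptor of monocytes and neutrophils that amplifies inflammatory signals. It was at 15.9, 72.8 and 150 region CPM (lowest, median and highest of 6 MI libraries) and at 0, 19.6 and 39.5 in 6 sham libraries, so that 1 MI library, RZ replicate 3, lay within the sham range and the other 5 lay above it. The difference was 2.19 ± 0.47 (adjusted p = 0.019), 2.56 within replicate number 2 and 1.85 within number 3.

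The next regions in that comparison did not pass. Cxcr2, the receptor through which neutrophils and some monocytes follow CXC chemokines, differed by 2.14 ± 0.54 (adjusted p = 0.054), with 11.1, 36.5 and 144 region CPM in MI and 0, 7.67 and 65.9 in sham libraries. The region shared by Dcxr and Cbr2, genes of carbonyl reductases of which Cbr2 marks resident macrophages, differed by −1.10 ± 0.29 (adjusted p = 0.062), and Slc14a1, a urea transporter gene, by −1.65 ± 0.45 (adjusted p = 0.084). Unadjusted p-values under 0.05 were found at 7.46% of promoter regions, 13.4% of other autosomal regions and 10.7% of all regions.

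The call at Trem1 depended on the processing and on single libraries, whereas the block changed the number of promoter regions called. Of 11 alternative settings in which Trem1 was tested, 8 kept the call. It was lost with all unique pairs as total, with no filter on low counts and with limma-trend, and no promoter region was called with a filter of 10 pairs or a region threshold of 8 times the mean. Without the pool block 6 promoter regions were called (56 of all regions), 3 higher and 3 lower. With the replicate number as a block in place of the pool, 12 were called (117 of all regions), 6 higher and 6 lower, and MI and sham libraries of the same number shared a flow cell set. No promoter region was called without MI IZ replicate 3, MI RZ replicate 2, sham IZ replicate 3, sham BZ replicate 3 or sham RZ replicate 2. The count was 2 without MI RZ replicate 3 or sham BZ replicate 2, 3 without sham RZ replicate 3, 4 without sham IZ replicate 2, 7 without MI BZ replicate 3 and 27 (17 higher, 10 lower) without MI IZ replicate 2. The difference at Trem1 stayed between 1.64 and 2.75 over the 12 omissions. None of the 7 neutrophil markers had a promoter region, and the part of neutrophils in the values of Trem1 and Cxcr2 was not tested.

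In the other comparisons of MI with sham no promoter region passed, and none of all 12490 regions did (limma). Unadjusted p-values under 0.05 were found at 2.77% of promoter regions and 2.97% of all regions in P10 hearts at day 7, at 4.70% and 4.83% in P1 hearts at day 7, and at 1.13% and 1.31% in P1 hearts at day 3, where each group had 1 library. The difference of the MI response between P10 and P1 had no called region at either day, with such p-values at 3.33% of promoter regions at day 3 (all regions 3.56%) and 3.40% at day 7 (3.59%). IZ against RZ after MI called no promoter region, in P10 hearts at day 3 (1 of all regions, 0.00801%) or over ages and days (0 of all). The P10 IZ library of day 3 replicate 2 mattered here too, since without it 7 and 3 promoter regions were called, and 3 in the second comparison without P1 MI day 7 IZ replicate 1. Day 7 against day 3 in P10 sham hearts called none. Unadjusted p-values under 0.05 were found at 5.90%, 5.62% and 4.64% of promoter regions in these 3 comparisons and at 6.98%, 8.11% and 6.54% of all regions.

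The regions with the smallest p in these comparisons did not pass. After MI they were Ccdc171 (−2.12) and Pilrb1 (−2.05) in P10 hearts at day 7, Fam161a (−2.28) and Mettl16 (1.89), an RNA methyltransferase, in P1 hearts at day 7, and 9530068E07Rik (−2.005) and Aplf (2.16), a DNA repair factor, in P1 hearts at day 3, with adjusted p of 0.667 or more. In IZ against RZ of P10 hearts at day 3 they were Cnot8 (2.33), a deadenylase, Stim2 (1.83, but −0.40 without P10 MI day 3 RZ replicate 2), a calcium sensor of the endoplasmic reticulum, Sectm1a (−3.52) and Mrps36 (−3.23), and over ages and days Gsdme (1.45), a gasdermin, Cfap54 (1.27), Slc39a8 (−1.77), a zinc transporter, and Smad1 (−1.72), a factor of BMP signalling, with adjusted p of 0.1502 or more. In day 7 against day 3 they were Clcf1 (1.18), a cytokine, Zbtb16 (1.46), Vipas39 (−1.10) and Gtf2b (−1.64), a general transcription factor.

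**Figure D3:**
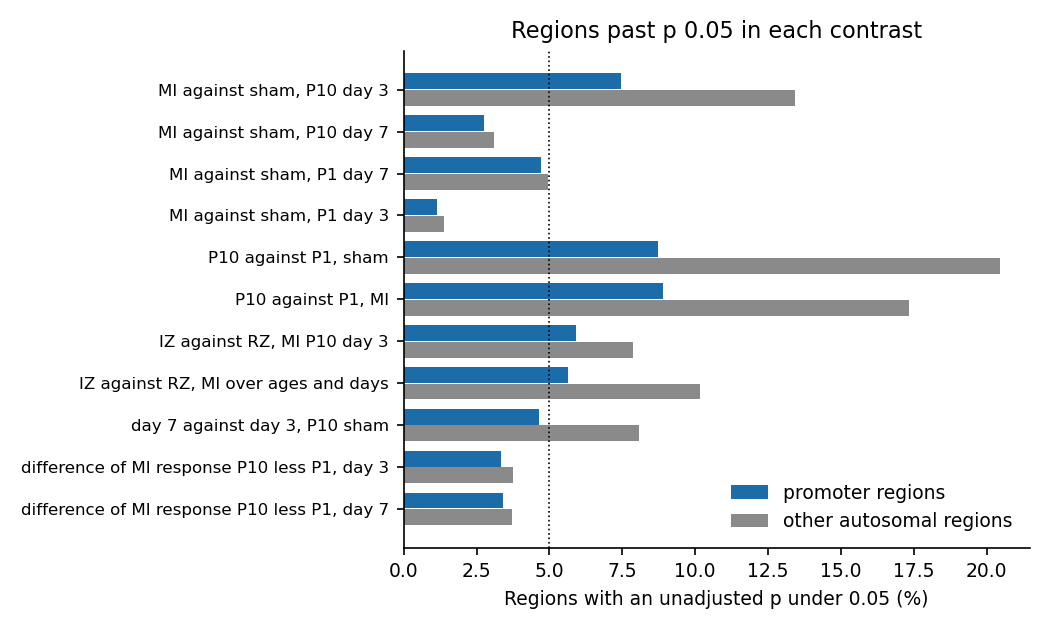
Percentage of tested regions with an unadjusted p under 0.05 (x, limma voom) in each comparison (y), for 5495 promoter regions (blue) and 6801 other autosomal regions (grey); the dotted line marks 5%. The blue bar is shorter than the grey one in all comparisons, by most in P10 against P1 in sham hearts (8.72% against 20.5%). The median SE of promoter regions was larger in all (0.398 against 0.382 for MI in P10 hearts at day 3). Their median absolute log2 difference was smaller there (0.290 against 0.296). It was also smaller in P10 against P1 (0.226 against 0.282 in sham, 0.263 against 0.281 in MI hearts). In the rest it was larger, so a shorter bar does not by itself mean a smaller difference.

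P10 against P1 asks how promoters differ between hearts operated in the regenerative window and after it. In sham hearts 48 promoter regions passed, 13 higher and 35 lower at P10 (0.874% of 5495), beside 4.22% of other autosomal regions and 2.69% of all regions, 0.665% higher and 2.03% lower. After MI 23 passed, 2 higher and 21 lower (0.419%), beside 2.04% of other regions and 1.3% of all regions, 0.28% higher and 1.02% lower. The share of promoter regions called was thus below the background in both. The median difference of promoter regions was −0.05 in sham and −0.13 in MI hearts, and of all regions −0.05 and −0.08.

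Among the 13 regions higher at P10 in sham hearts, the smallest p was that of Plekhg5. This gene of a guanine nucleotide exchange factor for RhoA was at 57.1, 131 and 209 region CPM in 12 P10 libraries (lowest, median, highest) and at 6.15, 48.3 and 276 in 9 P1 libraries, a difference of 1.49 ± 0.31 (adjusted p = 0.0016). The highest P1 value came from IZ replicate 1 of day 7, the library of 48077 pairs, and rested on 4 pairs. Without P1 sham day 7 IZ replicate 2 the difference at Plekhg5 was 0.85 (adjusted p = 0.141, limma) and was not called. Mgl2, a lectin of resident macrophages, was at 14.1, 27.6 and 63.0 at P10 and at 0, 0 and 18.5 at P1 (1.86 ± 0.43, adjusted p = 0.0062), so that most P1 libraries held no pair. Pmp22, a membrane protein first described in myelin, was at 36.6, 89.6 and 160 against 9.70, 32.4 and 72.5 (1.44 ± 0.33, adjusted p = 0.0053). Dcxr with Cbr2 (0.84 ± 0.22) and Mertk (0.93 ± 0.28) were also higher, as were the platelet chemokine genes Pf4 and Ppbp in 1 region, the transporter gene Slco2b1, Ch25h, a cholesterol hydroxylase, St3gal6, Snx24, Tmem176a with Tmem176b, Rhoc and Rab1a, at 0.69 to 1.25. At day 3 alone the region of Pf4 was at 0.27 ± 0.39 and Slco2b1 at 0.12 ± 0.29, and both were at −0.07 with flow cell set as a term. Of these 13 regions 10 were CpG-poor, where 1889 of the 5495 tested were.

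Among the 35 regions lower at P10 in sham hearts was Trem3. This neighbour of Trem1 in the genome, which encodes a receptor of the same family, was at 0, 6.73 and 32.0 region CPM at P10 and at 0, 41.6 and 49.2 at P1 (lowest, median and highest, −2.05 ± 0.40, adjusted p = 0.000953), and Trem1 itself differed by −1.35 ± 0.41 (adjusted p = 0.048). Of the 9 P1 values of Trem3, 5 lay above the highest P10 value, though both groups held libraries at 0. Lower too were Itgax, which encodes CD11c (−1.36 ± 0.32), S1pr5, a receptor for sphingosine-1-phosphate known from patrolling monocytes (−1.42 ± 0.32), the lipid-sensing receptor gene Gpr55 (−1.95 ± 0.43), Cd244a, a receptor of the SLAM family (−1.09 ± 0.26), and the adhesion gene Icam2 (−1.50 ± 0.38). S100a4, a calcium-binding protein of motile cells, was called at −1.07 ± 0.30. Within the one set of flow cells that both ages shared it stood at −0.17. That value sets P10 libraries of day 7 against P1 libraries of day 3, so day differs as well as age. At day 3 with flow cell set as a term S100a4 was at −0.08 ± 0.59. Dnajc28 and Rab44 differed by −1.61 ± 0.33 and −1.92 ± 0.41. Of the 35 regions 20 were CpG-poor. In both directions together, 1.59% of CpG-poor and 0.499% of CpG-rich promoter regions were called.

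After MI most of the regions called were lower at P10. The smallest p was that of Ikbke. This gene, which encodes a kinase of interferon and NF-κB signalling, was at 0, 50.5 and 175 region CPM in 12 P10 libraries and at 60.7, 151 and 314 in 9 P1 libraries, a difference of −1.39 ± 0.27 (adjusted p = 0.0019). By day its medians were 131 in P10 and 124 in P1 libraries at day 3, but 23.96 and 216 at day 7, so the groups were alike in level at the first day and apart at the second. Scd2, a fatty acid desaturase, differed by −1.32 ± 0.28, the RNA helicase gene Helz by −1.82 ± 0.40, Sema4d, a semaphorin of immune cells, by −1.85 ± 0.43, Fam117a by −1.50 ± 0.35 and the integrin gene Itgb7 by −1.03 ± 0.25. Kdelc2, an enzyme that adds glucose to proteins in the endoplasmic reticulum, was higher, at 10.3, 42.8 and 104 against 0, 5.18 and 40.5 (1.47 ± 0.40, adjusted p = 0.038), and so was Blnk, an adaptor of B cell receptor signalling that macrophages also use (0.98 ± 0.27, adjusted p = 0.042). By day, Kdelc2 differed by 0.56 ± 0.61 at day 3 and 2.37 ± 0.51 at day 7, and Blnk by 0.52 ± 0.38 and 1.44 ± 0.38. Hp, which encodes haptoglobin, was called lower over both days, but was at 0.29 ± 0.46 at day 3 and at −2.92 ± 0.47 at day 7. Of the other regions lower at P10, Keap1 encodes the sensor that restrains NRF2. Rasgrp2, an activator of Rap1, differed by −1.09. Within the set of flow cells that both ages shared it differed by −0.49, between P10 libraries of day 7 and P1 libraries of day 3. H2-Q4 differed by −1.44, and by −0.13 between those unlike days within that set. At like days it differed by −1.86 ± 0.59 (day 3) and −1.01 ± 0.45 (day 7). H2-Q4 has near-identical relatives in the MHC, and how reads were assigned among them was not tested.

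The sham and the MI libraries gave like directions without sharing any library, although they shared flow cells. Of the 35 regions lower at P10 in sham hearts 33 were below 0 in MI hearts, 19 of them with an unadjusted p under 0.05, where 63.9% of all tested promoter regions were below 0 in MI hearts and 7.75% had such a p there (9.3% of all regions). Of the 13 higher ones 12 were above 0, 5 of them with such a p, where 36.1% of all tested promoter regions were above 0 and 1.13% had such a p (4.19% of all regions). Of the 21 lower in MI hearts 20 were below 0 in sham hearts, 16 with such a p, where 55.2% and 5.90% of all tested promoter regions were so and 10.1% of all regions had such a p. Both higher ones were above 0 with such a p, where 44.8% and 2.82% of all tested promoter regions were so (5% of all regions had such a p). Called in both were 6 regions, 12.5% of those in sham and 26.1% of those in MI hearts: Ikbke, Scd2, Cd244a, S1pr5, St3gal5, which makes the ganglioside GM3, and Palm, all lower at P10. In MI hearts at day 3 with flow cell set as a term, 4 of the 6 were not below 0, Ikbke at 0.60 ± 0.51, St3gal5 at 0.36 ± 0.69, Scd2 at 0.015 ± 0.52 and Cd244a at 0.0075 ± 0.49, whereas S1pr5 was at −1.32 ± 0.65 and Palm at −0.46 ± 0.72.

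**Figure D4:**
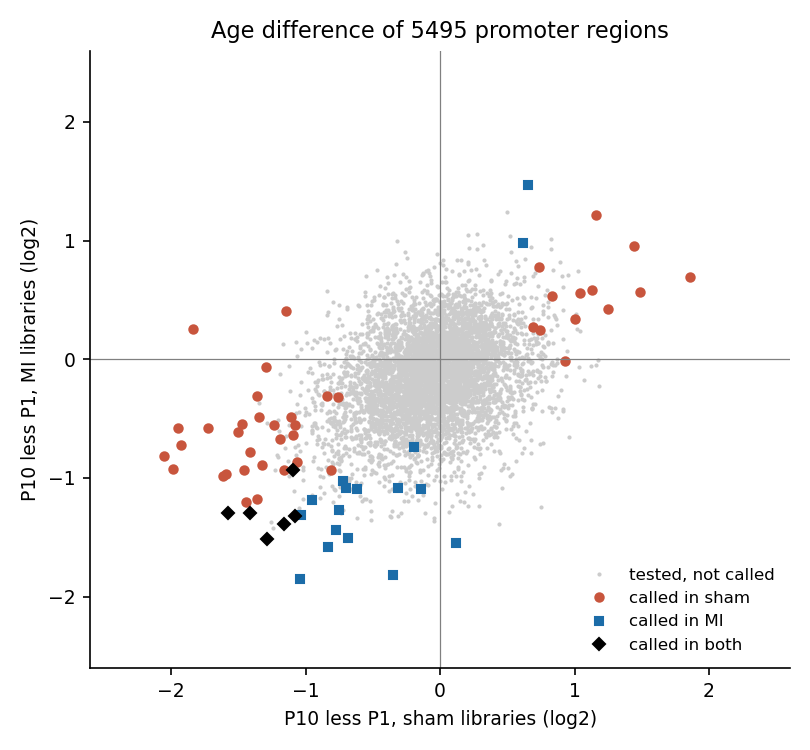
Log2 difference of P10 less P1 in sham libraries (x) and in MI libraries (y) for the 5495 tested promoter regions; grey points were not called, circles were called in sham, squares in MI and diamonds in both. Most called regions lie at the lower left, and the 6 diamonds are all lower at P10 in both.

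Age and sequencing run overlapped in part. By the flow cells named in the reads, all P1 libraries of day 3 shared a set with the P10 libraries of day 7 replicate 1, whereas no other P1 library shared one with a P10 library, so that at day 7 age and flow cell cannot be told apart. The median fragment length was 191 to 200 bp in the 4 pools of that set and 252 to 295 bp in the others, and its part in the differences was not tested. With day 3 alone no promoter region was called in sham hearts. The called regions were chosen on the mean of both days, so their sign at one day is in part fixed by the choice and is given as a description. Within the shared set, P10 libraries of day 7 less P1 libraries of day 3 had the direction of the call at all 35 and 13 regions in sham hearts. In MI hearts they had it at all 21 and 2. Those libraries also entered the choice. At day 3 the medians of the 35 lower and 13 higher regions in sham hearts were −1.16 and 0.61, each region on its own side of 0, where 46.5% of all tested promoter regions were below 0 and 53.5% above, and at day 7 the medians were −1.56 and 1.38. In MI hearts 19 of the 21 lower regions were below 0 at day 3 (as were 64.2% of all tested promoter regions), with a median of −0.97, against −1.79 at day 7. The exceptions were Hp and Ikbke, the latter at 0.10 ± 0.35 at day 3 and −2.88 ± 0.41 at day 7. The difference between the days was not tested. At day 3 the P1 and the P10 libraries shared no set, so a flow cell term there rests on the P10 libraries of day 7. P1 hearts of day 3 had 1 pool per surgery, so all day 3 differences between ages rest on that pool. With it, in place of the pool block, 34 of the 35 lower regions in sham hearts were below 0 (median −1.01), 11 of the 13 higher ones above 0 (median 0.80), and 17 of the 21 lower regions in MI hearts below 0 (median −0.58). Of all tested promoter regions 45.2%, 54.8% and 60.4% lay on those sides. At day 7 alone, 70 promoter regions were called in sham hearts (22 higher, 48 lower, with 3.67% of all regions called) and 92 in MI hearts (22 higher, 70 lower, 4.33%).

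The number of calls moved with the method, the libraries and the scaling. With limma-trend in place of voom it was 3 in sham and 1 in MI hearts, where 48 and 23 had been called, with a region threshold of 8 times the mean 16 and 8, with a filter of 10 pairs 23 and 7, and with no filter 25 and 6. In sham hearts it was 83 without P1 sham day 3 IZ replicate 1 and 21 without the RZ library of that pool, and 27 to 29 without the P10 sham libraries day 3 RZ replicate 2, IZ replicate 3, BZ replicate 3 or day 7 IZ replicate 1. In MI hearts it was 8 without P10 MI day 3 RZ replicate 2, 9 without BZ replicate 3, 11 without day 7 IZ replicate 2, 12 without day 7 BZ replicate 2 or P1 MI day 7 BZ replicate 1, 15 without P10 MI day 7 RZ replicate 2, 35 without P1 MI day 3 BZ replicate 1, and 37 without P10 MI day 3 IZ replicate 3 or P1 MI day 7 BZ replicate 2. Each P1 group of day 3 had 1 library. Leaving such a library out dropped its zone at day 3 for both ages, so 83, 21 and 35 are counts of a narrower comparison. Scaling by all unique pairs moved the median of all regions by 0.16 in sham and 0.19 in MI hearts and left 4 calls, 2 higher and 2 lower, and 0, where the scaling used gave 13 higher and 35 lower, and 2 and 21. No called region had P10 and P1 libraries fully apart, and 10 of the 35, 3 of the 13, 3 of the 21 and 0 of the 2 stayed called without each library in turn.

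The gene lists were chosen with earlier results known. The authors named cell clusters of these same libraries by genes of the resident macrophage and S100a9 Ly6c monocyte lists, among others. They report Cbr2-high Lyve1-high and S100a9 Ly6c clusters as enriched in P10 hearts, and Arg1 and Ly6c-low clusters as enriched in P1 hearts. Values at such genes are therefore not separate evidence. Of the resident macrophage list, 6 of 15 genes had a promoter region and 4 were tested. In P10 against P1 in sham hearts 2 of the 4, Mgl2 and Cbr2, were called, where 0.874% of tested promoter regions were, and Gas6, a bridging ligand of Mertk, and Folr2 differed by 0.82 and −0.52. In P10 hearts at day 3 after MI all 4 were below 0 (Mgl2 −1.62, Gas6 −1.28, Cbr2 −1.10, Folr2 −0.48, median −1.19 against −0.09 for all regions) and none passed. Of the S100a9 Ly6c monocyte list, 9 of 13 genes had a promoter region and 3 were tested, Ccr2, Vcan and Cxcr2. They were above 0 after MI in P10 hearts at day 3 (median 0.58) and below 0 at P10 against P1 (medians −0.79 in sham and −0.82 in MI hearts), and none passed. The sign between ages is opposite to the enrichment of the S100a9 Ly6c cluster at P10 in the paper. That enrichment counts cells per cluster, an unlike measure. The days differed at Cxcr2 after MI, with medians of 36.5 region CPM in P10 and 20.7 in P1 libraries at day 3, but of 4.59 and 30.5 at day 7. The S100a8 region was at 1.33 CPM and was not tested. Of the Ly6c-low monocyte list Spn, Itgal and Treml4 were tested, with medians of −0.78 and −0.76 in the age comparisons, and none passed. These medians have the direction that the paper reports for its Ly6c-low cluster, from the same libraries.

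None of the tested regions of the interferon, NF-κB, ribosomal protein and oxidative phosphorylation lists was called in these 3 comparisons, in which 1 of 5495, 0.874% and 0.419% of tested promoter regions were. Among 10 tested interferon response genes the median was −0.19 in P10 hearts at day 3 after MI and −0.17 and −0.42 in the age comparisons, and among 6 tested genes of the NF-κB list, Nfkb2, Il1b, Icam1, Nfkb1, Rel and Relb, −0.04, 0.01 and 0.02. Ribosomal protein genes (57 tested) had medians of −0.16, −0.14 and −0.22, and genes of oxidative phosphorylation (45 tested) −0.11, −0.07 and −0.21, beside −0.17, −0.05 and −0.13 for all tested promoter regions. The largest difference among the interferon genes was that of Mx1 after MI, −1.37 ± 0.50, which did not pass. Of the Arg1 and lipid-associated list, Arg1 differed by −0.01 ± 0.37 in P10 hearts at day 3 after MI, and its promoter region was at 18.0 CPM. Of the remaining lists, promoter regions were found at 5 of 7 MHC class II genes (1 tested), 4 of 9 MHC class I genes, 11 of 19 glycolysis and hypoxia genes, 6 of 15 lysosome genes, 5 of 14 TGF-beta genes and 27 of 67 histone genes, the last in 14 regions. Of all 21938 protein-coding gene starts 8843 lay in a promoter region. Of the 197 regions tested over all lists, those of Mertk, Mgl2 and Cbr2 were called in these 3 comparisons, all higher at P10 in sham hearts. Mertk was 1 of 7 tested in the macrophage and monocyte identity list.

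The single libraries show how the 4 regions printed above moved with age, surgery and day. Kdelc2 held no pair in 4 of 6 P1 MI libraries of day 7 and was at 5.18, 25.9 and 40.5 in the 3 of day 3, while P10 MI libraries had medians of 26.1 at day 3 and 58.7 at day 7. Trem1 was also high in P1 MI libraries of day 7, with a median of 88.9, where P1 sham libraries had 38.3.

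**Figure D5:**
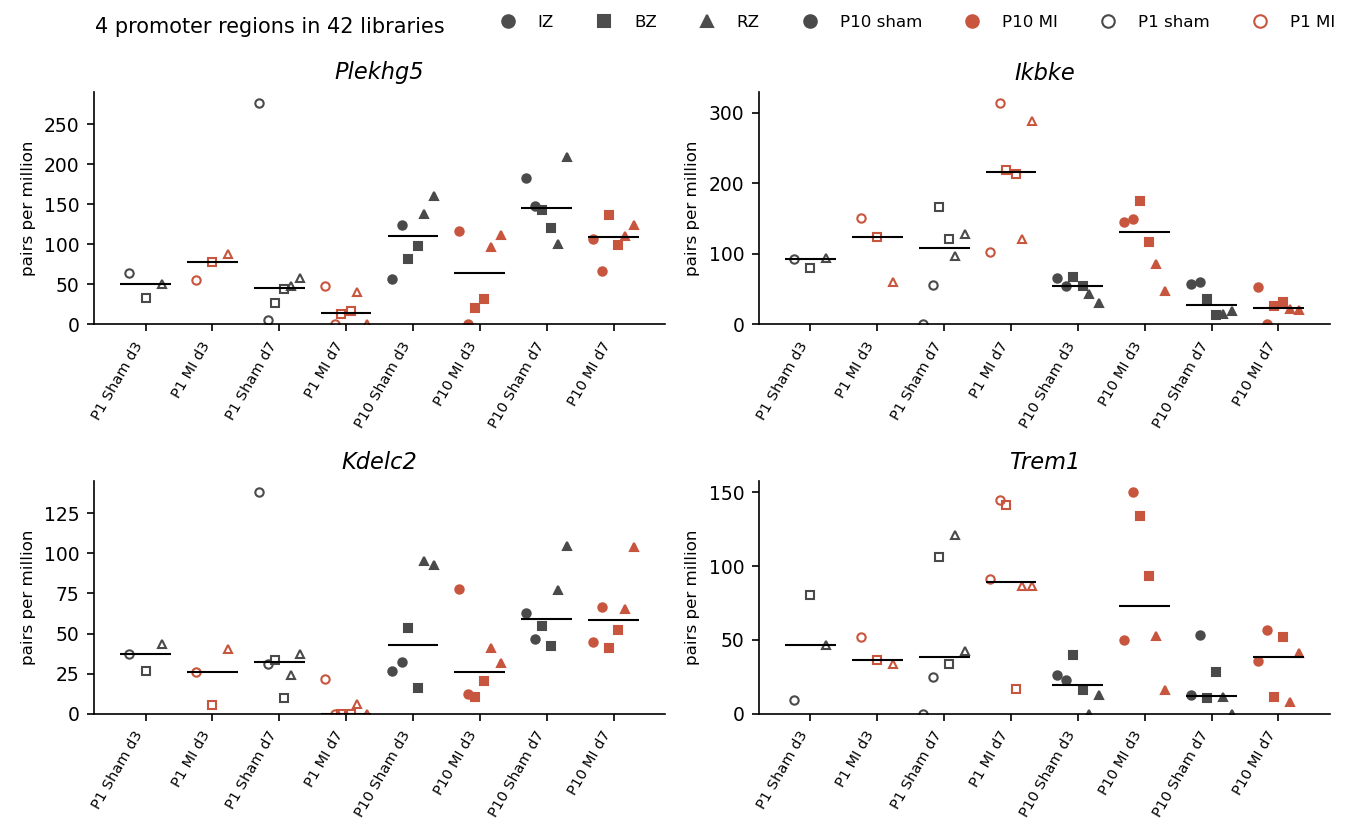
Region CPM (y, pairs per 1000000 pairs in tested regions) at 4 promoter regions in each of 42 libraries, by age, surgery and day (x, d3 and d7 are days after surgery); open symbols are P1 and filled P10, grey sham and red MI, the shape gives the zone, and bars are medians. The median of Ikbke is lowest in P10 MI libraries of day 7 and highest in P1 MI libraries of day 7, and that of Plekhg5 is highest in P10 sham libraries of day 7.

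Over the 14 pools, other promoter regions closely followed the 4 regions. Among 5494 promoter regions, the pattern closest to Ikbke by Pearson's r was that of Cd244a (0.94), then Cd101 (0.93) and Pi16 (0.93). Plekhg5 was closest to Hif3a (0.96), Kdelc2 to the region of Cdr2 and Mfsd13b (0.95), and Trem1 to Gm5150 (0.87) and its neighbour Trem3 (0.86). The best of so many regions over 14 points is high by selection, and the pools share depth and flow cells, so these values are descriptions.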

How the data were processed

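H3K27ac was profiled by CoBATCH in 42 libraries of sorted cardiac CD45+F4/80+ cells. The other 6 of the 48 samples, of embryonic material and of bulk embryonic and adult heart, were not analysed here. The authors trimmed and demultiplexed the reads, aligned them with Bowtie2 to mm10, filtered them by mapping quality and removed duplicates with Picard, and the submitters' processing notes also name MACS2 2.2.7.1 and deepTools. The deposited files list aligned reads, 1 per line, and their value column is a mapping quality score. The planned count test was therefore applied to counts made here from read positions. Repeated lines were dropped and reads were joined to pairs by name, with no further removal of pairs with equal ends. Reads without a mate were kept and counted as pairs, and pairs with 2 mates made up 70.4% to 100% per library. Midpoints were counted in the 500 bp windows and regions. Libraries numbered 2 held 9.67% to 32.2% repeated lines and the others 0%. Libraries held 48077 to 1008924 pairs, and intervals of counts were not needed since all tests ran over libraries or pools.

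Regions that averaged 3 pairs or more were fitted with limma 3.58.1 (voom weights, 24 group means, a common correlation within pools of 0.053) in R 4.3.3, with TMM factors from regions with a mean of at least 20 pairs. Single values were tested by exact permutation of pools within age and day (or surgery and day), with numpy 2.4.6. Gene starts came from GENCODE and bases from the RefSeq sequence of GRCm38.p6. The scripts were tested on simulated data. The regions, gene lists and comparisons were chosen with earlier results of these data known. Named genes were up to 6 called regions per comparison and direction or, where fewer than 2 passed, the 2 with the smallest p, the 10 highest, the 8 most and the 8 least variable regions, and up to 4 genes per list; other called regions and list genes were named after their values were seen. The alternatives were other scalings, filters, weights, blocks, region thresholds, pairs with 2 mates, and omission of each library or pool. Some genes are not reported here.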

Additional observations from a re-analysis of the deposited data

Results flagged for a closer look

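In 95 groups of 4 to 10 libraries or pools, 7 held a library whose gap to the nearest other exceeded Dixon's 95% limit, and chance gives about 1 in 20. Values other than the share are region CPM, pairs per 1000000 pairs in tested regions. In P1 sham hearts at day 7, IZ replicate 1, the library of 48077 pairs, reached 276 at Plekhg5 (others 6.15 to 58.5), on 4 pairs, and 138 at Kdelc2 (others 9.70 to 37.2), on 2 pairs. In P1 MI hearts at day 7, IZ replicate 1 reached 21.5 at Kdelc2 (others 0 to 5.77), on 4 pairs. In P10 MI hearts at day 7, RZ replicate 2 reached 242 at Blnk (others 94.9 to 146), on 35 pairs, and BZ replicate 2 reached 88.9 at Slc14a1 (others 18.98 to 44.5), on 17 pairs. In P10 sham hearts at day 3, IZ replicate 2 reached 65.9 at Cxcr2 (others 0 to 14.1), on 15 pairs, and RZ replicate 2 held 31.7% of its region pairs in promoter regions (others 28.1% to 29.4%).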

How the results depend on the processing

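The count of called promoter regions moved by more than 1.5 times under these settings. For MI against sham in P10 hearts at day 3 (1), it was 0 with all unique pairs as total, a filter of a mean of 10 pairs, no filter beyond 1 pair, limma-trend or a region threshold of 8 times the mean, 2 with TMM over all tested regions or with the pairs in tested regions as total, 3 with TMM within bins of GC content or without libraries under 100000 pairs, 5 with pairs of 2 mates alone, 6 without the pool block and 12 with a replicate block. For P10 against P1 in sham hearts (48), it was 4 with all unique pairs, 23 and 25 with the filter of 10 and without one, 3 with limma-trend, 80 without the pool block, 82 with a replicate block, 16 at 8 times the mean, and 0 from day 3 alone, with the pool block, without it or with a flow cell term. For P10 against P1 after MI (23), it was 0 with all unique pairs, 15 within bins of GC content, 7 and 6 with the filter of 10 and without one, 1 with limma-trend, 44 without the pool block, 9 with TMM over all regions, 38 without the small libraries, 8 at 8 times the mean, and from day 3 alone 1 without the pool block, 0 with it and 0 with the flow cell term, while a replicate block gave 22. IZ against RZ in P10 hearts at day 3 gave 1 at 8 times the mean, and day 7 against day 3 gave 1 with a replicate block. The replicate block stood in place of the pool block. The cause was not tested for any of these.

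Leaving out each library gave 0 to 27, 21 to 83 and 8 to 37 calls in the first 3 comparisons, 0 to 7 for IZ against RZ in P10 hearts at day 3 and 0 to 3 over ages and days. Without a P1 library of day 3, the age comparison of its surgery lost that zone at day 3. Both 21 and 83 come from such omissions. The share of promoter pairs differed by −1.44 to −0.65 points between MI and sham without each pool, and by −0.84 to 0.0315 between ages (the highest without P1 MI day 3 replicate 1), with 0.83 over all unique pairs. The values −1.44 and 0.0315 each leave out a whole comparison at day 3, as given above. Ikbke after MI turned to 0.10 from day 3 alone and 0.60 with the flow cell term, Scd2 to 0.0148 with that term, and Stim2 in IZ against RZ to −0.40 without P10 MI day 3 RZ replicate 2, in a range up to 2.65. Of the values of single genes under the other settings, 596 kept direction and side of the threshold, 85 fell short of it and 14 newly passed it. The lower spread of promoter regions passed under every alternative run. For each age and day with 2 replicate numbers, the log2 difference between the numbers, averaged over zones, was taken in MI and in sham. Over 5100 regions the MI and sham differences correlated by 0.15 (P1 day 7), −0.05 (P10 day 3) and 0.24 (P10 day 7). The main fit did not take the numbers as pairs. Same-numbered MI and sham pools of P10 hearts shared a flow cell set, so these correlations do not decide whether the numbers are pairs. The calls with a replicate block are given above. The median depth was 23.2 pairs per promoter region and pool.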
